A study of Mus musculus with 14 samples.

Results

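The genes described here are 10 genes of antigen presentation by the major histocompatibility complex (MHC), taken by their symbols from the count table. Of the 54532 genes in the table, 15458 passed the filter on low counts, and 10 of the 10 MHC genes were among them. H2-K1 and H2-D1 encode class I heavy chains, B2m the light chain that pairs with them, Tap1 a subunit of the peptide transporter, and Nlrc5 the transactivator of class I genes. H2-Aa, H2-Ab1 and H2-Eb1 encode class II chains, Cd74 the invariant chain that accompanies class II molecules, and Ciita the transactivator of class II genes.

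Class I molecules are carried by nearly all nucleated cells and show CD8 T cells peptides that the proteasome cuts and the Tap transporter pumps into the endoplasmic reticulum. Class II molecules are made mainly by macrophages, dendritic cells and B cells, display peptides of ingested proteins after the invariant chain has been removed by proteases, and are read by CD4 T cells. Interferon gamma raises the transcription of both classes.

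RNA-seq was carried out on skeletal muscle of male FVB/N mice with endothelial c-Myc overexpression (EC-Myc OE) and of their control littermates (CT), fed either the control diet (CTD) or the western diet (WD). The EC-Myc OE mice carry the tetO-MYC transgene, a human c-Myc gene on the Y chromosome, together with Cdh5-tTA, a transactivator driven by the endothelial Cdh5 promoter. CT mice carry tetO-MYC and lack Cdh5-tTA, and all mice were raised on doxycycline, which was withdrawn between 4 and 6 weeks of age. The study's methods name soleus and gastrocnemius as the muscles used, and the labels do not say which of them a library came from.

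By the labels, 3 libraries are CT-CTD, 3 CT-WD, 4 OE-CTD and 4 OE-WD, and the diets lasted 20 weeks. A number after a group's name is the replicate number. The study's text gives other group sizes and, in a passage, a shorter time on diet. The labels were followed, and an exchange of the names CT-WD and OE-CTD would turn each comparison below into another of them, except the interaction, which it would leave as it is. The effect of these doubts on the values was not tested.

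The counted reads were 24807368, 24101226 and 25054855 in CT-CTD 1 to 3, and 26518734, 21833839 and 23814408 in CT-WD 1 to 3. They were 25486678, 28519159, 22966288 and 22083340 in OE-CTD 1 to 4, and 25281275, 27115249, 22033140 and 27698046 in OE-WD 1 to 4. Depth differed little between groups, whereas the counts of a gene averaged from 6.21 per library for H2-Eb1 to 3816 for H2-D1. Levels below are CPM, counts scaled to library size with TMM factors, and levels are compared between genes only in FPKM, fragments scaled to gene length and library size, as deposited by the authors.

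The labelled tissue was checked against 9 muscle fibre genes, all of which were detected in all 14 libraries. Their summed level lay between 112347 and 161247 CPM, and skeletal actin, Acta1, was the most abundant per length. A pair of CT libraries stood apart from the others of their genotype. CT-CTD 1 and CT-WD 1 had more H2-K1, H2-D1, B2m and Tap1 than each of the other 4 CT libraries, and their description numbers belong to another series, whose meaning is not given. OE-CTD 1 to 3 share a description number and the OE-WD libraries all share another, so that in EC-Myc OE the number runs with diet and the effects of both cannot be told apart. OE-CTD 4 and OE-WD 4 had the highest share of mitochondrial counts (14.9% and 14.5%) and the lowest TMM factors (0.888 and 0.899). Calls that turn on leaving out either pair are given with and without it, a choice made after the data were seen.

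Per length, the light chain and a heavy chain led the 10 genes. B2m had 81.1 ± 13.4 FPKM (SD, n = 14) and H2-D1 64.5 ± 12.0 FPKM (SD, n = 14), and the libraries of these genes overlapped. Cd74 followed at 14.6 ± 4.90 FPKM and H2-K1 at 7.98 ± 1.96 FPKM (SD, n = 14), again with overlap. The invariant chain was thus far above the class II chains it accompanies, of which H2-Ab1 had 1.65 ± 0.769, H2-Aa 0.545 ± 0.176 and H2-Eb1 0.233 ± 0.151 FPKM (SD, n = 14). Tap1 was at 0.816 ± 0.325 FPKM, between H2-Ab1 and H2-Aa, and overlapped with both. The transactivators were lowest on average, Nlrc5 at 0.121 ± 0.0477 and Ciita at 0.0774 ± 0.0354 FPKM (SD, n = 14), and did not differ beyond their spread. No library overlapped between H2-D1 (lowest 50.1 FPKM) and Cd74 (highest 21.9 FPKM), nor between H2-K1 (lowest 5.52 FPKM) and H2-Ab1 (highest 2.93 FPKM).

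H2-D1 (ENSMUSG00000073411) lies on chromosome 17 of GRCm38, 35262730 to 35267499, on the plus strand. Its level was 203, 120.0 and 119 CPM (CT-CTD 1 to 3) and 164, 129 and 153 CPM (CT-WD 1 to 3). In EC-Myc OE it was 180.1, 140.0, 187 and 120.03 CPM (OE-CTD 1 to 4) and 155, 184, 162 and 117 CPM (OE-WD 1 to 4). The highest library, CT-CTD 1, and the next to lowest, CT-CTD 3, belonged to the same group, and all 4 groups overlapped. Averaged over diets, the log2 fold change of H2-D1 between EC-Myc OE and CT was 0.08 (standard error, SE, 0.141, adjusted p = 0.798 in edgeR's quasi-likelihood test with Benjamini-Hochberg adjustment). With each library left out it lay between 0.00995 and 0.22.

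H2-K1 (ENSMUSG00000061232, chromosome 17, 33996017 to 34000333, minus strand) was at 31.1, 17.9 and 13.4 CPM (CT-CTD 1 to 3) and at 20.9, 16.2 and 15.9 CPM (CT-WD 1 to 3). It was at 24.1, 17.0, 22.5 and 12.96 CPM (OE-CTD 1 to 4) and at 17.5, 21.6, 19.6 and 16.3 CPM (OE-WD 1 to 4). As for H2-D1, CT-CTD 1 was highest, OE-CTD 4 was low and all groups overlapped. The averaged log2 fold change between genotypes was -0.02 (SE 0.173, adjusted p = 0.964 in edgeR's test), and its sign depended on the library left out.

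B2m (ENSMUSG00000060802, chromosome 2, 122147686 to 122153083, plus strand) had 87.5, 50.1 and 53.4 CPM (CT-CTD 1 to 3) and 70.7, 49.2 and 63.9 CPM (CT-WD 1 to 3). In OE-CTD 1 to 4 it had 73.1, 58.8, 75.7 and 55.9 CPM, and in OE-WD 1 to 4 it had 62.3, 71.5, 64.3 and 57.2 CPM. B2m varied least of the 10 genes, with a coefficient of variation of 17.0% over the libraries, and its order over libraries resembled that of the heavy chains. Its averaged log2 fold change was 0.05 (SE 0.126, adjusted p = 0.845 in edgeR's test), with a 95% interval from -0.21 to 0.32.

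Tap1 (ENSMUSG00000037321, chromosome 17, 34187553 to 34197225, plus strand) spread more widely, from 2.30 CPM in CT-CTD 2 to 7.95 CPM in CT-CTD 1, which was 3.45 times as high. The other CT libraries had 2.74 CPM (CT-CTD 3) and 5.10, 2.56 and 2.93 CPM (CT-WD 1 to 3). The EC-Myc OE libraries had 6.17, 3.10, 4.25 and 2.60 CPM (OE-CTD 1 to 4) and 4.94, 4.35, 5.27 and 3.05 CPM (OE-WD 1 to 4). In both CT groups the library numbered 1 was well above the other pair. Between OE-WD and CT-WD the log2 fold change of Tap1 was 0.31 (SE 0.403, adjusted p = 0.746 in edgeR's test). It was 0.68 without CT-WD 1 and 0.12 without CT-WD 2 (adjusted p between 0.192 and 0.946 over 24 alternatives).

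Nlrc5 (ENSMUSG00000074151, chromosome 8, 94434356 to 94527272, plus strand) had few reads, between 4 in OE-CTD 4 and 37 in CT-CTD 1. Its level ran from 0.204 to 1.46 CPM over these libraries, and its group means were between 0.896 and 0.999 CPM. The averaged log2 fold change between genotypes was -0.01 (SE 0.356, adjusted p = 0.986 in edgeR's test), with a 95% interval from -0.77 to 0.74. That interval for Nlrc5 holds changes of over 1.5-fold in either direction.

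H2-Ab1 (ENSMUSG00000073421, chromosome 17, 34263209 to 34269418, plus strand), the class II beta chain of the A molecule, had 2.53, 1.42 and 1.15 CPM (CT-CTD 1 to 3) and 3.36, 0.870 and 1.24 CPM (CT-WD 1 to 3). In OE-CTD 1 to 4 it had 2.53, 2.28, 4.41 and 3.78 CPM, and in OE-WD 1 to 4 it had 2.26, 2.95, 1.70 and 4.18 CPM. The 4 CT libraries numbered 2 or 3 lay below all 8 EC-Myc OE libraries, while CT-CTD 1 and CT-WD 1 lay among them. Averaged over diets, the log2 fold change was 0.75 (SE 0.308, unadjusted p = 0.0276, adjusted p = 0.151 in edgeR's test). Without CT-WD 1 it was 1.15 with an adjusted p of 0.0123, and without both CT libraries numbered 1 it was 1.35 with an adjusted p of 0.0049, so the call on H2-Ab1 rested on these libraries (adjusted p between 0.0049 and 0.302 over 23 alternatives). Calls among all genes rose in these settings too, with counts given below.

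Cd74 (ENSMUSG00000024610, chromosome 18, 60803848 to 60812646, plus strand) was at 22.9, 10.9 and 9.45 CPM (CT-CTD 1 to 3) and at 24.8, 16.4 and 8.36 CPM (CT-WD 1 to 3). It was at 17.1, 20.9, 28.4 and 20.1 CPM (OE-CTD 1 to 4) and at 16.4, 24.2, 17.4 and 26.8 CPM (OE-WD 1 to 4). Again CT-CTD 1 and CT-WD 1 lay within the range of EC-Myc OE, and the other 4 CT libraries lay below it, CT-WD 2 only just. The averaged log2 fold change of Cd74 was 0.47 (SE 0.237, unadjusted p = 0.0656, adjusted p = 0.242 in edgeR's test). With each library left out it lay between 0.31 (without CT-WD 3) and 0.72 (without CT-CTD 1). Without both CT libraries numbered 1 it was 0.94 with an adjusted p of 0.0051 (adjusted p between 0.0051 and 0.448 over 23 alternatives).

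H2-Aa (ENSMUSG00000036594, chromosome 17, 34282744 to 34287827, minus strand), the alpha chain that pairs with H2-Ab1, had 0.949, 0.377 and 0.516 CPM (CT-CTD 1 to 3) and 1.37, 1.21 and 0.934 CPM (CT-WD 1 to 3). It had 0.882, 0.858, 1.36 and 0.714 CPM (OE-CTD 1 to 4) and 0.700, 1.12, 0.851 and 1.25 CPM (OE-WD 1 to 4). CT-CTD 2 and CT-CTD 3 were the lowest of all libraries, and CT-CTD 1 slightly exceeded CT-WD 3, so that the CT groups overlapped. The log2 fold change of WD against CTD in CT was 0.93 (SE 0.389, unadjusted p = 0.0304, adjusted p = 0.629 in edgeR's test) and lay between 0.68 and 1.37 with each library left out. The difference between the diet responses of the genotypes was -0.89 on the log2 scale (SE 0.508, adjusted p = 0.857 in edgeR's test).

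H2-Eb1 (ENSMUSG00000060586, chromosome 17, 34305877 to 34316199, plus strand), the beta chain of the E molecule, is given in counts because it had so few. There were 1, 4 and 3 counts in CT-CTD 1 to 3 and 4, 1 and 13 in CT-WD 1 to 3. OE-CTD 1 to 4 had 12, 10, 7 and 9 counts, and OE-WD 1 to 4 had 3, 8, 7 and 5. All 4 OE-CTD libraries were above all 3 CT-CTD libraries, and CT-WD 3 was far above CT-WD 1 and CT-WD 2. For OE-CTD relative to CT-CTD its log2 fold change was 1.78 (SE 0.702, unadjusted p = 0.0226, adjusted p = 0.220 in edgeR's test), between 1.38 and 2.20 with each library left out. The interaction of diet and genotype was -1.97 (SE 0.960, adjusted p = 0.847 in edgeR's test), and -0.67 without CT-WD 3.

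Ciita (ENSMUSG00000022504, chromosome 16, 10480059 to 10528418, plus strand) was counted 7 to 32 times per library. It was at 0.751, 0.544 and 0.596 CPM (CT-CTD 1 to 3), at 0.832, 0.483 and 0.533 CPM (CT-WD 1 to 3), and at 0.422, 0.792, 0.536 and 0.357 CPM (OE-CTD 1 to 4). OE-WD 3 and OE-WD 4 stood out with 1.36 and 1.29 CPM, whereas OE-WD 1 and OE-WD 2, with 0.506 and 0.456 CPM, were among the low libraries. The log2 fold change of OE-WD against OE-CTD was 0.74 (SE 0.411, unadjusted p = 0.0918, adjusted p = 0.9999 in edgeR's test). It was 0.47 without OE-WD 3.

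**Figure D1:**
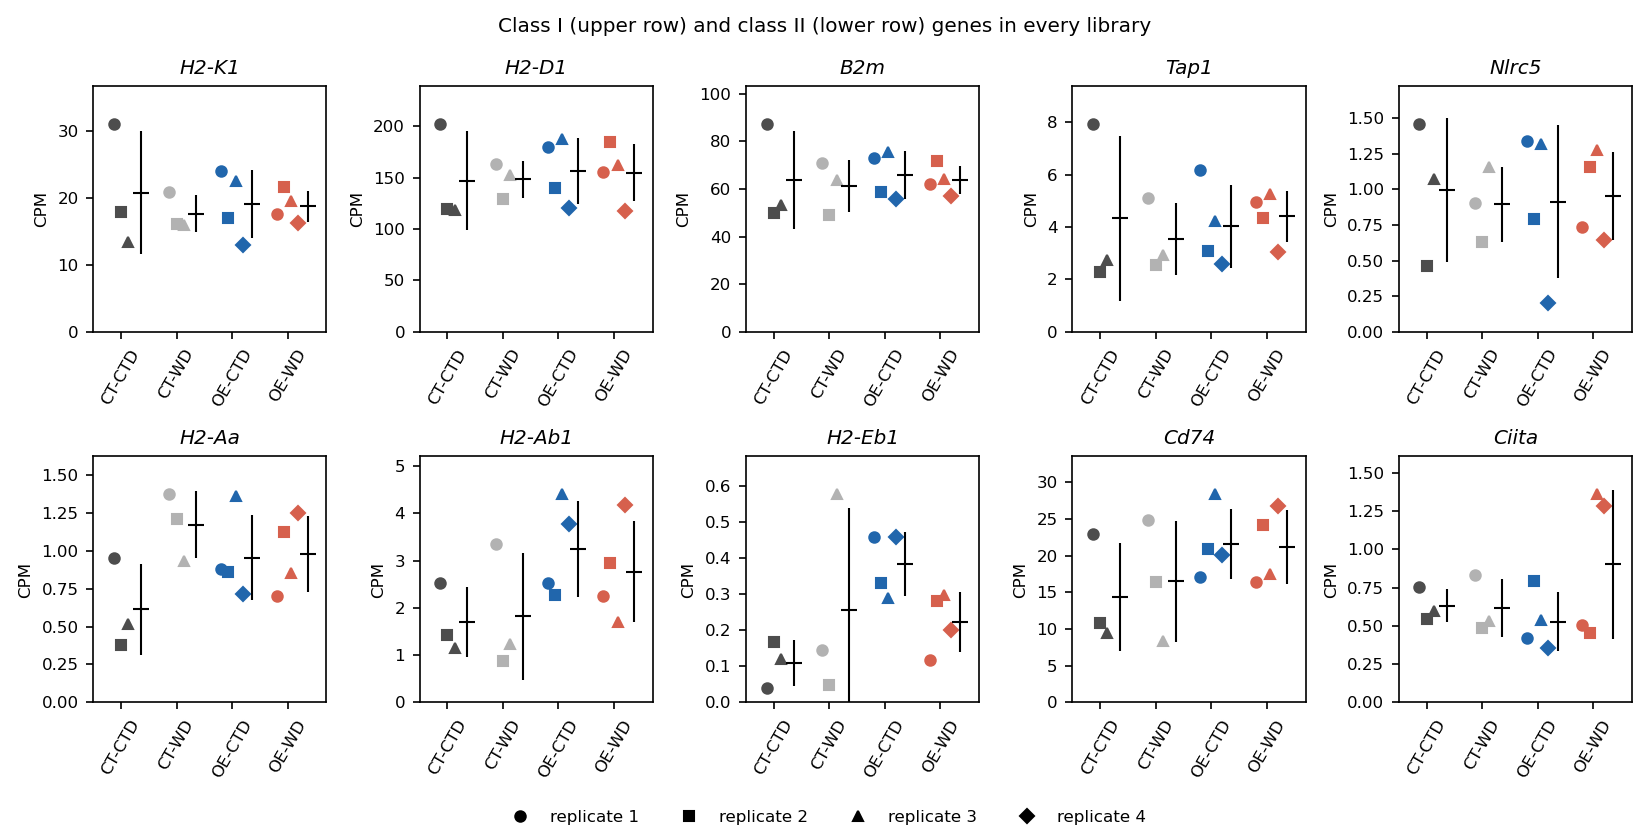
Each panel plots the level of a gene in TMM-scaled CPM (vertical axis) in the 4 groups (horizontal axis). Each point is a library, its shape gives the replicate number, and the bar is the mean with the SD over the 3 CT or 4 EC-Myc OE libraries of a group; CT-CTD 1 is highest for H2-K1, H2-D1, B2m, Tap1 and Nlrc5, and H2-Ab1 ranges from 0.870 CPM in CT-WD 2 to 4.41 CPM in OE-CTD 3.

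Calls required more than a 1.5-fold difference with an adjusted p below 0.05 in edgeR's quasi-likelihood test, and a gene passed at an unadjusted p when that p was below 0.05 with more than 1.5-fold. The comparisons ask whether diet acts on muscle within a genotype, whether endothelial c-Myc acts within a diet, and whether these depend on each other. They share libraries with each other and are given side by side. None of the 10 genes was called in any of the 7 comparisons with all libraries, by edgeR or by DESeq2. Limma on log2(FPKM + 1) also called 0, but the added 1 compresses low levels, so that Nlrc5 spanned only 0.04 to 0.25 on that scale and had no room for a call, and the difference of H2-Eb1 between OE-CTD and CT-CTD shrank from 1.78 to 0.30. Limma counts below are therefore those with 0.1 added, a scale put first only after these values were seen, where 9 of the 10 genes passed the FPKM minimum of 0.1, Ciita did not, and 0 were called.

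On diet within CT (CT-WD against CT-CTD), edgeR called 0 of 10 genes, beside 0% of all genes tested, and 1 gene, H2-Aa, passed at an unadjusted p, beside 3.05% of all genes. DESeq2 and limma each found 1 at the unadjusted level. The 10 genes divided evenly, 5 higher and 5 lower, with a median log2 fold change of -0.00 against 0.01 for all genes. On diet within EC-Myc OE (OE-WD against OE-CTD), edgeR called 0 of 10, beside 0.00647% of all genes, and 0 passed at an unadjusted p, beside 1.37%, with 0 by DESeq2 and 0 by limma. There, 4 genes were higher and 6 lower, with a median of -0.02 against 0.00 for all genes. Averaged over genotypes, WD against CTD gave 0 of 10 called by edgeR, beside 0.00647% of all genes, and 0 at an unadjusted p, beside 1.6%, with 0 by DESeq2 and 0 by limma. With 10 genes, such counts are too small to set either class of MHC genes apart from all genes or to equate it with them.

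On genotype within WD (OE-WD against CT-WD), edgeR called 0 of 10, beside 0.563% of all genes, and 0 passed at an unadjusted p, beside 5.74%, with 0 by DESeq2 and 0 by limma. The log2 fold change of H2-Ab1 was 0.57 (adjusted p = 0.540 in edgeR's test), being 0.25 when CT-WD 2 was left out, and that of Cd74 was 0.35 (adjusted p = 0.632), being 0.04 when CT-WD 3 was left out and 0.78 when CT-WD 1 was. Without both CT libraries numbered 1, H2-Ab1 was called here, at 1.38 with an adjusted p of 0.0420 (adjusted p between 0.042 and 0.875 over 24 alternatives). Of all genes, 997 of 15693 were then called, against 87 of 15458 with all libraries. On genotype within CTD (OE-CTD against CT-CTD), edgeR called 0 of 10, beside 1.91% of all genes, and 1 gene, H2-Eb1, passed at an unadjusted p, beside 7.12%, with 2 by DESeq2 and 2 by limma. That count lay between 0 and 3 with each library left out. For H2-Ab1 the log2 difference was 0.92 (SE 0.437, adjusted p = 0.319 in edgeR's test), and for Cd74 it was 0.58 (SE 0.336, adjusted p = 0.435), being 0.35 when CT-CTD 3 was left out. Without both CT libraries numbered 1, Cd74 was called here, at 1.09 with an adjusted p of 0.0369 (adjusted p between 0.0369 and 0.787 over 24 alternatives). Of all genes, 550 of 15693 were then called, against 295 of 15458 with all libraries.

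Averaged over diets, EC-Myc OE against CT gave 0 of 10 genes called by edgeR, beside 3.64% of all genes, and 1 gene, H2-Ab1, at an unadjusted p, beside 7.18%, with 1 by DESeq2 and 2 by limma. In this comparison 8 genes were higher and 2 lower, with a median log2 fold change of 0.12 against -0.00 for all genes. The remaining class II genes had log2 fold changes of 0.79 for H2-Eb1 (adjusted p = 0.337), 0.19 for H2-Aa (adjusted p = 0.707) and 0.14 for Ciita (adjusted p = 0.837), and Tap1 had 0.10 (adjusted p = 0.870, all in edgeR's test). These sizes depended on single libraries. With each library left out, H2-Eb1 lay between 0.57 and 1.44, H2-Aa between 0.06 and 0.41 and Ciita between 0.00 and 0.29. The interaction of diet and genotype gave 0 of 10 called by edgeR, beside 0% of all genes, and 0 at an unadjusted p, beside 2.7%, with 0 by DESeq2 and 0 by limma. Without both EC-Myc OE libraries numbered 4, no member was called in any comparison by edgeR.

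The share of variation within groups is given without a test. For the 5 class I genes, Nlrc5 included, between 94.2% (Tap1) and 97.5% (H2-K1) of the variance of log2 CPM lay within the groups, against a median of 71.3% over all genes tested and 76.9% expected without any group effect. For the 5 class II genes it was between 53.8% (H2-Aa) and 78.7% (Ciita). Genotype and diet thus accounted for little of the spread of the class I genes among these libraries, and since these genes varied together they are not separate observations of it.

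Class I genes varied together from library to library. Over the 14 libraries, 45 pairs of the 10 genes were correlated on log2 CPM, with a permutation p from 100000 resamples (two-sided) and Benjamini-Hochberg adjustment over the 45 pairs. All 10 pairs of class I genes passed an adjusted p of 0.05, with Pearson r between 0.658 and 0.933 (median 0.849). Of the 10 pairs of class II genes 2 passed, and of the 25 pairs across classes 0 passed, where r lay between -0.218 and 0.517 (by Spearman's rho 10, 2 and 0 pairs passed). The permutations treat the 14 libraries as exchangeable, although CT libraries of the same number deviated together. On deviations from the group means, 10, 2 and 2 pairs passed, and without the 2 libraries farthest from the median 7, 1 and 1 passed, with a lowest class I r of 0.436. Those left out were the farthest for 1 gene of each pair, never Nlrc5, so they differ between pairs. Without both CT libraries numbered 1, 7, 1 and 0 pairs passed, and without both EC-Myc OE libraries numbered 4, 9, 2 and 5 passed. Centring on group means ties the libraries of a group to each other, so permutation p-values on deviations can be too small. Among class I genes r on deviations lay between 0.671 and 0.937, so their correlation was present within groups. The count across classes moved with OE-CTD 4 and OE-WD 4.

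The heavy chain H2-D1 and its light chain B2m were the closest pair, with Pearson r = 0.933 (permutation p = 1e-05, the smallest that 100000 resamples can give, adjusted p = 0.00045) and Spearman rho = 0.916 (permutation p = 1e-05). Without the 2 libraries farthest from the median r was 0.943. The heavy chains H2-K1 and H2-D1 had r = 0.875 (permutation p = 4e-05, adjusted p = 0.0006) and rho = 0.837 (permutation p = 0.0004), and r = 0.837 without the 2 farthest libraries. H2-D1 and the transporter gene Tap1 had r = 0.867 (permutation p = 0.00015, adjusted p = 0.00112) and rho = 0.78 (permutation p = 0.00163), and r = 0.843 without the 2 farthest. The transactivator Nlrc5 followed H2-D1 with r = 0.744 (permutation p = 0.00102, adjusted p = 0.00574) and rho = 0.793 (permutation p = 0.00122), and r = 0.718 without the 2 farthest. The other class I pairs of Nlrc5 did not pass in the permutation test without the 2 libraries farthest for the partner of Nlrc5. These libraries differ by partner, so the values below and that of H2-D1 do not rest on the same libraries. With H2-K1 r went from 0.658 to 0.436 (adjusted p = 0.317), and with Tap1 from 0.66 to 0.568 (adjusted p = 0.152). With B2m r stayed about as large, 0.68 with all libraries and 0.653 without the 2 farthest, while the adjusted p went from 0.0307 to 0.0668.

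Among class II genes, H2-Ab1 and Cd74 had r = 0.811 (permutation p = 0.00059, adjusted p = 0.00379) and rho = 0.899 (permutation p = 2e-05), with r = 0.892 without the 2 farthest libraries. H2-Aa and Cd74 had r = 0.684 (permutation p = 0.00709, adjusted p = 0.0319) and rho = 0.684 (permutation p = 0.00889). For H2-Aa and Cd74 the choice of libraries mattered. Without the 2 farthest r was 0.451 (adjusted p = 0.31) and without both CT libraries numbered 1 it was 0.657 (adjusted p = 0.0911), while on deviations from the group means it was 0.827 (adjusted p = 0.00141). Cd74 and its transactivator Ciita had r = 0.254 (permutation p = 0.382, adjusted p = 0.594) and rho = 0.275 (permutation p = 0.339), with r = 0.256 without the 2 farthest. Across classes, H2-D1 and Cd74 had r = 0.397 (permutation p = 0.161, adjusted p = 0.362) and rho = 0.415 (permutation p = 0.141), and r = 0.548 without the 2 farthest. For B2m and Cd74 r was 0.483 (permutation p = 0.0814, adjusted p = 0.253) and rho 0.53 (permutation p = 0.0551), with r = 0.5 without the 2 farthest.

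**Figure D2:**
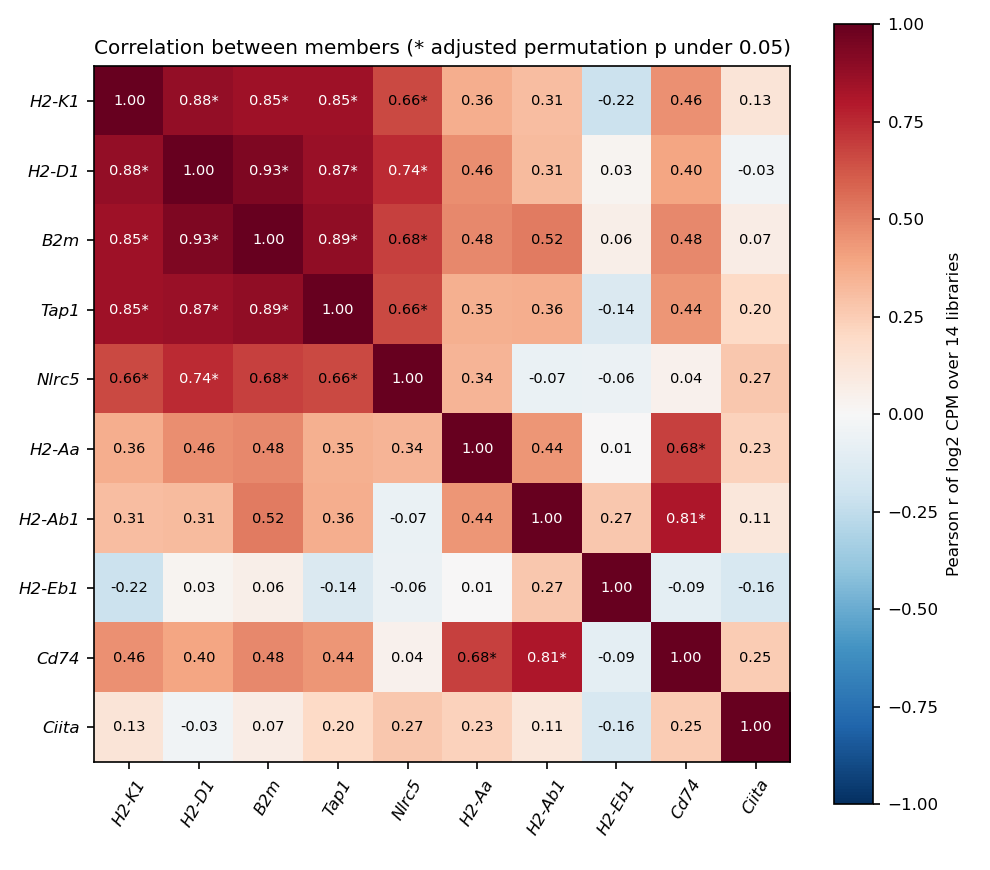
The colour and number of each square give the Pearson r of log2 CPM between a pair of genes over the 14 libraries, with class I genes listed before class II genes and an asterisk where the adjusted permutation p was under 0.05. Squares among H2-K1, H2-D1, B2m, Tap1 and Nlrc5 lie between 0.658 and 0.933, and squares across the classes between -0.218 and 0.517.

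The genes most like the class I mean (H2-K1, H2-D1, B2m and Tap1) over 14 libraries were H2-Q4 (r = 0.955), H2-Q6 (0.921) and H2-Q7 (0.882), which are further class I heavy chains. They were followed by Wrnip1 (r = 0.868), the interferon-induced GTPases Gbp2 (0.866) and Iigp1 (0.864), Inafm2 (0.853), and the immunoproteasome subunit Psmb9 (0.846). The genes most like the class II mean (H2-Aa, H2-Ab1, H2-Eb1 and Cd74) were S100a6 (r = 0.950), S100a11 (0.950), Nckap1l (0.949), Gas7 (0.946), Dbn1 (0.932), the lysosomal protease gene Ctsb (0.927), Ckap4 (0.926) and Islr2 (0.925). These values describe the 14 libraries, which share groups and scaling, and carry no test. The class II mean weighs H2-Eb1, with 1 to 13 counts per library, as much as the others. How far its few counts shaped the ranking was not tested.

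Beyond the 10 genes, 12 genes of class I peptide supply and loading were all tested, and 0 were called in any of the 7 comparisons by edgeR, with 0 at an unadjusted p and over 1.5-fold. Averaged over diets, 8 of the 12 were higher in EC-Myc OE, with a median log2 fold change of 0.08 against -0.00 for all genes. Pdia3, a disulfide isomerase of the peptide-loading complex, was the 1 of the 12 to pass the adjusted level in that comparison, below 1.5-fold, a share no higher than the 8.49% of all genes that did so at any size, and is named after its value was seen. Its level was 51.3, 46.1 and 52.9 CPM (CT-CTD 1 to 3) and 66.9, 48.2 and 60.4 CPM (CT-WD 1 to 3), against 67.2 to 85.5 CPM in the 8 EC-Myc OE libraries. The genotypes did not overlap for Pdia3, whose averaged log2 fold change was 0.48 (SE 0.0768, adjusted p = 0.00257 in edgeR's test). In OE-CTD against CT-CTD 1 of the 12 genes also passed the adjusted level below 1.5-fold, beside 2.67% of all genes at any size.

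Of 12 other class I heavy chain genes, 11 were tested and 1 was called averaged over diets, beside 3.64% of all genes, H2-T24, a nonclassical class I gene. It had 2.81, 3.14 and 3.57 CPM (CT-CTD 1 to 3) and 1.77, 3.14 and 3.47 CPM (CT-WD 1 to 3), and 4.75, 4.95, 3.59 and 5.72 CPM (OE-CTD 1 to 4) and 4.55, 5.47, 4.68 and 4.06 CPM (OE-WD 1 to 4). Every EC-Myc OE library was above every CT library, by a narrow margin between OE-CTD 3 and CT-CTD 3. Averaged over diets H2-T24 rose by 0.67 on the log2 scale (SE 0.157, adjusted p = 0.0174 in edgeR's test). With the replicate number as a block it was again 0.67, but the call was lost (adjusted p = 0.0711 in edgeR's test). Between genotypes this block joins libraries that share only a number. OE-CTD 4 and OE-WD 4 have no CT library of their number, so they drop out of the blocked comparison. Without CT-WD 1 the log2 fold change of H2-T24 was 0.54, short of 1.5-fold, as were 0.50 without both CT libraries numbered 1 and 0.44 by limma on log2(FPKM + 1). Between OE-WD and CT-WD it was 0.76 (adjusted p = 0.116 in edgeR's test), and that of Cd1d1, which presents lipids, was 1.28 (adjusted p = 0.267). DESeq2 called H2-T24 there (0.76, adjusted p = 0.0426). Without both CT libraries numbered 1 Cd1d1 was called, at 2.06 with an adjusted p of 0.0485, beside 997 of all 15693 genes tested then. Fcgrt, the neonatal Fc receptor heavy chain, passed the adjusted level with a small difference, 0.24 (SE 0.0585, adjusted p = 0.0226 in edgeR's test, between 0.00422 and 0.0646 over 23 alternatives), and is named after its value was seen.

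Of 15 class II processing and costimulation genes, 13 were in the table and 8 were tested. Ctss, which encodes cathepsin S, the protease that trims the invariant chain, was the 1 gene called in OE-CTD against CT-CTD, beside 1.91% of all genes, and averaged over diets, beside 3.64%. Its level was 2.61, 1.80 and 1.71 CPM (CT-CTD 1 to 3) and 4.74, 1.69 and 1.69 CPM (CT-WD 1 to 3). In OE-CTD 1 to 4 it was 4.91, 3.89, 9.73 and 5.26 CPM, and in OE-WD 1 to 4 it was 3.81, 5.72, 4.51 and 4.50 CPM. CT-WD 1 alone among the CT libraries reached the range of EC-Myc OE, whereas for H2-Ab1 and Cd74 CT-CTD 1 reached it too, and the CTD groups did not overlap for Ctss. Ctss rose by 1.54 in OE-CTD relative to CT-CTD on the log2 scale (SE 0.375, adjusted p = 0.0411 in edgeR's test) and by 1.15 averaged over diets (SE 0.261, adjusted p = 0.0146). The call within CTD was lost without any of CT-CTD 1 to 3, OE-CTD 1 to 3, OE-WD 1, OE-WD 3 or OE-WD 4 (log2 fold change between 1.19 and 1.75 with each library left out, adjusted p between 0.000721 and 0.181 over 24 alternatives). With limma on log2(FPKM + 1) it was 1.08 (adjusted p = 0.0713), and without both EC-Myc OE libraries numbered 4 it was 1.59 (adjusted p = 0.0562 in edgeR's test). With the replicate number as a block both calls on Ctss were lost, with fold changes about as large. These were 1.51 within CTD (adjusted p = 0.153 in edgeR's test) and 1.21 averaged over diets (adjusted p = 0.0721). As for H2-T24, this block joins libraries that share only a number and does without those numbered 4.

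The rest of this list gave no call. The costimulatory receptor gene Cd40 had a log2 fold change of 1.22 between OE-CTD and CT-CTD (adjusted p = 0.126 in edgeR's test) and 0.75 averaged over diets (adjusted p = 0.108). Cd80, a costimulatory ligand, had -0.72 for WD against CTD averaged over genotypes (adjusted p = 0.726 in edgeR's test), and Ifi30, a lysosomal thiol reductase, had an interaction of -0.60 (adjusted p = 0.825). All 8 tested genes of the list were higher in OE-CTD than in CT-CTD (49.9% of all genes were), with a median log2 fold change of 0.58 against -0.00 for all genes. In OE-WD against CT-WD 6 of the 8 were higher (50.9% of all genes), with a median of 0.12, and in CT-WD against CT-CTD 6 of the 8 (51.5% of all genes), with a median of 0.22. In OE-WD against OE-CTD 0 of the 8 were higher (51.4% of all genes), with a median of -0.36, and in the interaction 0 of the 8 were above zero (49.1% of all genes), with a median of -0.43.

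Of 12 transcription factors that act at MHC promoters, all were tested and 0 were called in the 7 comparisons by edgeR, with 0 at an unadjusted p and over 1.5-fold. In interferon gamma signalling, 5 of 6 genes were tested, and the ligand gene Ifng had 0 counts in every library. Both receptor kinases, 2 of the 5, passed the adjusted level below 1.5-fold when averaged over diets, beside 8.49% of all genes at any size, and are named after their values were seen. Jak2 lay between 50.3 and 65.1 CPM in EC-Myc OE and between 67.8 and 111.8 CPM in CT. It fell by 0.47 on the log2 scale (SE 0.0916, adjusted p = 0.00633 in edgeR's test, between 8.57e-05 and 0.0534 over 23 alternatives). Jak1 fell by 0.29 (SE 0.0822, adjusted p = 0.0426 in edgeR's test), with an adjusted p between 0.000366 and 0.149 over 23 alternatives.

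Of 25 interferon-induced genes 23 were tested and 0 were called in the 7 comparisons by edgeR. At an unadjusted p over 1.5-fold, Gbp6, a guanylate-binding GTPase, was higher in OE-WD than in OE-CTD (log2 fold change 1.35, adjusted p = 0.9999 in edgeR's test), and 0.07 without OE-WD 1. Ifit1, which binds viral RNA, was lower in EC-Myc OE averaged over diets (log2 fold change -0.69, adjusted p = 0.179 in edgeR's test). The summed level of the 25 genes was 155, 96.7 and 98.9 CPM (CT-CTD 1 to 3), 129, 92.2 and 98.6 CPM (CT-WD 1 to 3), 134, 107, 110.04 and 104 CPM (OE-CTD 1 to 4) and 113, 120.2, 116 and 90.4 CPM (OE-WD 1 to 4), with Ifi27 the most abundant per length. CT-CTD 1 was highest for this sum as it was for the class I genes. The part of this list in the class I levels was not tested.

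Markers of cells that make class II molecules were measured beside the class II genes. All 12 macrophage markers were detected, 10 were tested and 0 were called in the 7 comparisons by edgeR. At an unadjusted p, 7 of the 10 were over 1.5-fold higher in OE-CTD than in CT-CTD, beside 7.12% of all genes, and 3 in EC-Myc OE averaged over diets, beside 7.18%. Within WD 0 of the 10 passed, beside 5.74%, and the median was 0.12, against 0.84 within CTD. In the interaction 0 of the 10 were called, and 1 was above zero (median -0.54). Only C1qa passed there at an unadjusted p (-0.78, adjusted p = 0.834 in edgeR's test), beside 2.7% of all genes. No difference between the diets in the response to genotype was therefore called. In CT-WD against CT-CTD, where H2-Aa passed at an unadjusted p, the complement genes C1qa (0.60) and C1qb (0.74) passed too, beside 3.05% of all genes, and 9 of the 10 were higher, with a median of 0.53. Without CT-WD 1 C1qa was at 0.17 and C1qb at 0.29. Their sum was 87.6, 53.2 and 46.7 CPM (CT-CTD 1 to 3), 140.3, 70.8 and 57.9 CPM (CT-WD 1 to 3), 89.6, 108, 139 and 88.0 CPM (OE-CTD 1 to 4) and 84.5, 138, 85.7 and 91.2 CPM (OE-WD 1 to 4). CT-CTD 1 and CT-WD 1 were again the highest of their groups, and Lyz2 was the most abundant marker. Csf1r, the receptor of the macrophage growth factor, had a log2 fold change of 0.71 (adjusted p = 0.0796), Adgre1 of 1.09 (adjusted p = 0.0847), both averaged over diets, and the complement gene C1qa of 0.88 between OE-CTD and CT-CTD (adjusted p = 0.0724, all in edgeR's test); these were chosen after their values were seen. These calls too turned on the libraries and the method. Without CT-WD 1, Csf1r was called at 0.97 (adjusted p = 0.00888), Adgre1 at 1.42 (adjusted p = 0.0215) and C1qa at 0.88 (adjusted p = 0.0129). Without both CT libraries numbered 1, Csf1r was called at 1.11 (adjusted p = 0.00452), Adgre1 at 1.66 (adjusted p = 0.0130) and C1qa at 1.14 (adjusted p = 0.00261). Calls over all genes rose as well, averaged over diets from 562 with all libraries to 1111 without CT-WD 1 and 1295 without both. In OE-CTD against CT-CTD they went from 295 to 440 and 550. With all libraries, DESeq2 called Adgre1 (adjusted p = 0.0326) and C1qa (adjusted p = 0.0110), and edgeR called all 3 without the filter on low counts and C1qa with the pair of groups fitted alone (adjusted p = 0.0147). Fewer cells of a type and less RNA per cell cannot be told apart in such tissue, and the part of the macrophage markers in the class II levels was not tested.

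The 6 pan-leukocyte markers, led by Laptm5, summed to 12.3, 9.08 and 7.43 CPM (CT-CTD 1 to 3), 20.6, 8.75 and 7.02 CPM (CT-WD 1 to 3), 13.8, 17.1, 21.8 and 14.4 CPM (OE-CTD 1 to 4) and 10.5, 20.6, 13.1 and 18.4 CPM (OE-WD 1 to 4), and 0 of 6 were called by edgeR, with 2 at an unadjusted p in OE-CTD against CT-CTD, beside 7.12% of all genes, and 1, Laptm5, averaged over diets (0.75, adjusted p = 0.0913, named after its value was seen), beside 7.18%. All 6 were higher in these comparisons, in OE-WD against CT-WD and also in CT-WD against CT-CTD (median 0.31), where 51.5% of all genes were higher. In OE-WD against OE-CTD 2 of the 6 were higher, with a median of -0.08. Among the CT-WD libraries, only CT-WD 1 (20.6 CPM) had a sum above that of every CT-CTD library. Without CT-WD 1 Laptm5 was called, at 1.07 (adjusted p = 0.00597), as it was without both CT libraries numbered 1, at 1.25 (adjusted p = 0.00217), and by DESeq2 (adjusted p = 0.0340). With these CT libraries left out, calls over all genes rose as given for the macrophage markers. The 9 dendritic cell markers summed to between 13.8 and 20.2 CPM, led per length by Clec10a and in CPM by Zbtb46, which alone held 7.44 to 12.05 CPM, and 0 of the 5 tested were called. At an unadjusted p over 1.5-fold, the integrin gene Itgax was at 1.65 in OE-CTD against CT-CTD, beside 7.12% of all genes, and at -1.25 in OE-WD against OE-CTD, beside 1.37%. With each library left out, Itgax lay between 1.25 and 2.69 in the former and between -1.89 and -0.99 in the latter. Clec9a, a receptor for dead cells, was at 0.98 in CT-WD against CT-CTD, beside 3.05%, both genes being chosen after their values were seen. Lymphocyte markers were near the floor. The 7 B cell markers had between 2 and 29 counts together in a library, the most abundant being Cd79b, the 10 T and NK cell markers between 2 and 17, led by Cd4, and none of either list passed the filter.

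Of 9 endothelial markers, led by Cdh5, 0 were called and 5 passed the adjusted level below 1.5-fold when averaged over diets, beside 8.49% of all genes at that level at any size. In OE-WD against CT-WD 1 passed it, beside 0.725%, and in OE-CTD against CT-CTD 1, beside 2.67%, while 0 of the 10 MHC genes did so in any comparison. Cldn5, a tight junction gene, passed at an unadjusted p in CT-WD against CT-CTD (0.74, adjusted p = 0.427, and called without the filter on low counts at an adjusted p of 0.0210) and in the interaction (-0.63). Their sum was 389 ± 27.9 CPM (SD, n = 6) in CT and 465 ± 27.3 CPM (SD, n = 8) in EC-Myc OE. Cdh5 rose by 0.36 (SE 0.0639, adjusted p = 0.0039 in edgeR's test) and the angiopoietin receptor gene Tek by 0.45 (SE 0.0774, adjusted p = 0.00333) on the log2 scale, and these endothelial genes are named after their values were seen. The 4 adipocyte markers, led per length by Cidec, summed to between 9.34 and 97.5 CPM, and 1 was called averaged over diets, beside 3.64% of all genes. It was the leptin gene Lep, which rose by 2.25 (SE 0.506, adjusted p = 0.0136 in edgeR's test, 0.0766 with the replicate number as a block, which has the limits given for H2-T24, and 0.0569 by limma on log2(FPKM + 1) without a filter). If those group names were swapped (CT-WD for OE-CTD), this value would be that of diet averaged over genotypes, and the genotype value of Lep would be -1.17 (adjusted p = 0.769), with -1.77 and -0.60 as its extremes when single libraries are dropped. All 4 adipocyte markers were higher in EC-Myc OE averaged over diets (median 0.32, beside 49.7% of all genes higher). They were also higher in OE-WD against CT-WD (median 0.81, beside 50.9%). For diet, 0 of the 4 were higher in WD averaged over genotypes (median -0.60, beside 50.5%). There Lep, as labelled, was at -1.17 (unadjusted p = 0.0313, adjusted p = 0.769 in edgeR's test). In CT-WD against CT-CTD 0 of the 4 were higher (median -1.08, beside 51.5%), and in OE-WD against OE-CTD 1 of the 4 (median -0.21, beside 51.4%). The other adipocyte markers did not follow Lep in OE-CTD against CT-CTD, where 1 of the 4 was higher and the median was -0.09. The 5 epidermal markers, led by Krt5, varied most between libraries, from 2.40 CPM in OE-CTD 4 to 89.7 CPM in OE-WD 3, and 0 of the 4 tested were called. At an unadjusted p, the keratin genes Krt1 and Krt10 passed in WD against CTD averaged over genotypes, beside 1.6% of all genes, and Krt10 in OE-WD against OE-CTD, beside 1.37%, both higher in WD and named after their values were seen. CT-CTD 1 and CT-WD 1, on which the calls of H2-Ab1 and Cd74 turned, held 37.7 and 74.2 CPM of them, against 4.31 to 9.33 CPM in the other 4 CT libraries. All of the tissue's own 9 fibre markers were tested and 0 were called. The part of these cells in the MHC gene levels was not tested.

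**Figure D3:**
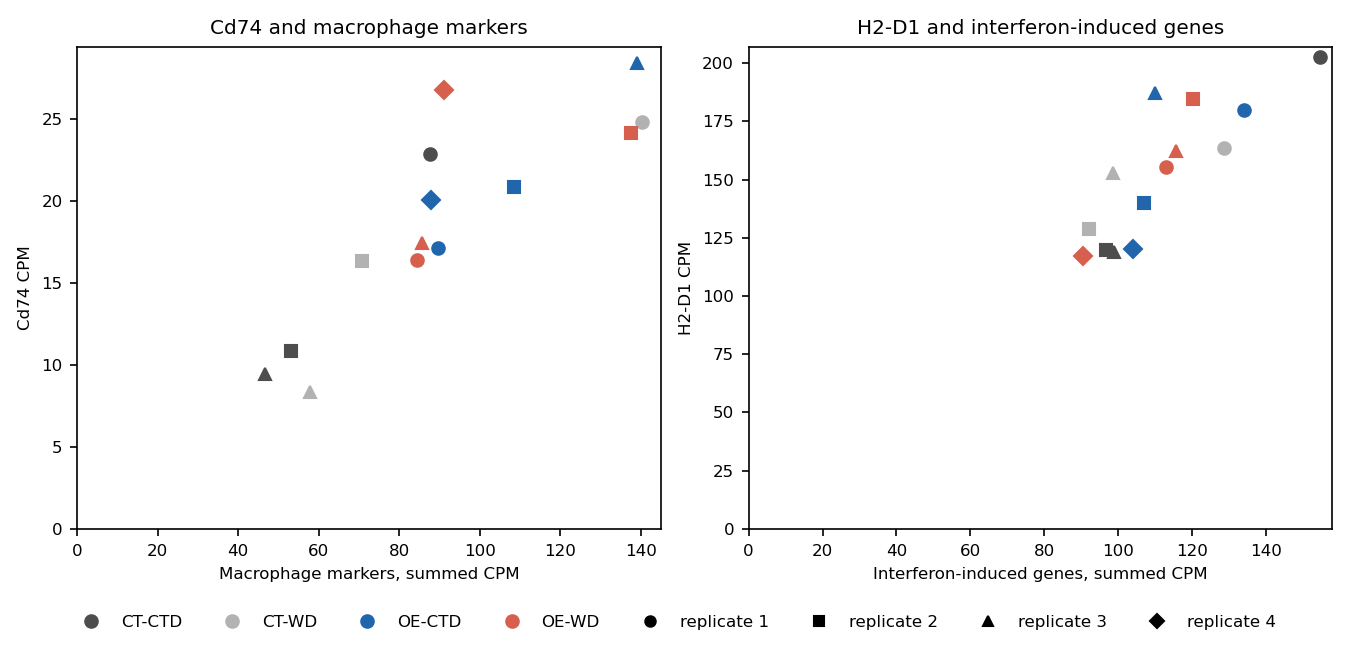
The left panel plots Cd74 (vertical axis, CPM) against the summed CPM of 12 macrophage markers, and the right panel plots H2-D1 (vertical axis, CPM) against the summed CPM of 25 interferon-induced genes, each point a library coloured by group and shaped by replicate number. CT-CTD 1 has 155 CPM of interferon-induced genes and the highest H2-D1, and the lowest Cd74, 8.36 CPM in CT-WD 3, stands beside 57.9 CPM of macrophage markers.

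Some reads of these genes could be shared with others. Of all 100-base windows of their annotated transcripts, 3.59% for H2-D1 and 0.957% for H2-K1 occurred identically in other genes, among them H2-Q1 and H2-T23 for H2-D1 and H2-Q10 for H2-K1, and 0% for the other members. H2-Q6 shared 1.56% of its windows with H2-D1 and 8.36% with H2-Q7, and H2-Q7 shared 5.56% with H2-Q10, 3.5% with H2-Q5 and 3.42% with H2-Q6. How far reads shared among them shaped their likeness was not tested. Tap1 shares 3.87% of its exon bases with Psmb9 on the opposite strand, Ciita 3.45% with Dexi and Nlrc5 0.918% with 9330175E14Rik, and the strand setting of the counting is not given in the sources used here. The H2 genes differ between mouse strains, and the effect of aligning reads of FVB/N to a reference of another strain was not tested.

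The promoters of the genes were searched for short motifs. RefSeq promoters (GRCm38.p6, 250 bases before to 50 after the start) were matched for 6 of the 10 genes by symbol. H2-Ab1, Ciita and Nlrc5 are among the others. The Tap1 window (chr17:34187306-34187605, plus strand) and that of Psmb9 (chr17:34187281-34187580, minus strand) share 275 bases, since these genes start 226 bases apart in opposite directions. The letters CCAAT were found on either strand in 6 of the 6 genes, as in 37.4% of the 32851 promoters of the table. GAAANNGAA was found only in B2m (8.56% of all promoters), GNAACNGNT only in H2-Eb1 (9.94%), and TTCNNNGAA in none of the 6 (8.3%). TGACG, chosen after the sequences were seen, was found in 5 of the 6 genes, all but H2-Eb1, and in 20.8% of all promoters.

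In H2-K1, H2-D1 and B2m, TGACG was followed by ATTGG, which is CCAAT on the other strand, with 25 bases from the start of the former to that of the latter, and in the class II gene H2-Aa with 26. This spacing was also chosen after the sequences were seen, and 0.164% of all promoters (54) hold it on either strand. The 150 bases before the start are shown for these 4 genes and for H2-Eb1, which lacks TGACG, from 5′ to 3′ on the strand of the gene. Capitals mark TGACG and CCAAT on either strand. The stretches are chr17:34000334-34000483 (minus strand) for H2-K1, chr17:35262944-35263093 (plus) for H2-D1, chr2:122147537-122147686 (plus) for B2m, chr17:34287824-34287973 (minus) for H2-Aa and chr17:34305717-34305866 (plus) for H2-Eb1. The start used for H2-D1, 35263094, lies inside the gene as the count table places it, so the stretch shown for H2-D1 is within that gene's annotated span. A match of letters is a description and not a binding site.
H2-K1: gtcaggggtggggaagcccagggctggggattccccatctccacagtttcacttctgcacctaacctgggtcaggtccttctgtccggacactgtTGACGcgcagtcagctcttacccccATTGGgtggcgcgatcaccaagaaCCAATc
H2-D1: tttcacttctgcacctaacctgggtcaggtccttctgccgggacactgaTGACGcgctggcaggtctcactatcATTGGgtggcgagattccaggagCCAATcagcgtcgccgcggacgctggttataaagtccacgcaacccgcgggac
B2m: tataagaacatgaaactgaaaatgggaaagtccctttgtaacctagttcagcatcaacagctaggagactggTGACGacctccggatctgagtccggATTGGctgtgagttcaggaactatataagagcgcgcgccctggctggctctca
H2-Aa: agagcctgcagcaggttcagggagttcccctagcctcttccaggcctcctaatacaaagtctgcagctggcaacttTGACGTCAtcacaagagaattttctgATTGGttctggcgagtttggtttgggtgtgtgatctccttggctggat
H2-Eb1: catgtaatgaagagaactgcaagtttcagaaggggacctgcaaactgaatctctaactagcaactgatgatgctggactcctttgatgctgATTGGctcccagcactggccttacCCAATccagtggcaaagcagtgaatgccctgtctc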

How the data were processed

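RNA-seq of mouse skeletal muscle was compared in 14 libraries. The authors deposited counts of reads per gene, without normalization, and FPKM values, in which counts are scaled to gene length and to a library total that was between 79.9% and 98.0% of the summed counts. The submitters' processing notes name HISAT2 2.0.5, featureCounts 1.5.0-p3 and mm10. The test was edgeR's quasi-likelihood test (edgeR 4.0.16, R 4.3.3) with TMM factors and filterByExpr, fitted to all 14 libraries with 1 mean per group, and Benjamini-Hochberg adjustment ran over 15458 genes in each comparison. DESeq2 1.42.0 and limma 3.58.1 on log2(FPKM + 1), with a mean FPKM of at least 0.1, served as alternatives, beside upper-quartile factors, a pseudocount of 0.1, no filter, the groups compared alone, the replicate number as a block and each library left out. Log2 CPM used a prior count of 2.

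All 10 members were named, and of each pathway list the genes called and, in each comparison, the 2 with the smallest unadjusted p under 0.05 over 1.5-fold. Other genes are said in the text to be chosen after their values were seen. Likeness was ranked over genes with a mean of at least 1 CPM, and the 8 highest were named. The members and lists were chosen with earlier results of these data known. The labels do not state that libraries came from separate animals, so p-values measure the spread between these samples. Every pair of replicates differed by more than sampling noise (chi-square per degree of freedom between 7.50 and 48.1). CT-CTD and CT-WD libraries of the same number deviated together from their group means (correlations 0.385, 0.123 and 0.203, each over 0.1), and from this check alone the numbers are read as pairs of CT libraries. Protein sequences were not used here.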

Additional observations from a re-analysis of the deposited data

How the results depend on the processing

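The count of members called was 0 in all 7 comparisons with all libraries, and 161 of 165 recomputed counts were the same. The counts at an unadjusted p were less stable, 116 of 165 being the same and 49 moved; with each library left out they reached 3 in OE-CTD against CT-CTD, 2 in OE-WD against CT-WD and averaged over diets, and 1 in the other comparisons, with a lowest of 0 in all. The 4 exceptions rested on CT libraries. With each library left out the count called lay between 0 and 1 averaged over diets (1 without CT-WD 1), and with both CT libraries numbered 1 left out, chosen after the data were seen, it was 2 averaged over diets, 1 in OE-WD against CT-WD and 1 in OE-CTD against CT-CTD. Calls over all genes rose too. Averaged over diets they went from 562 of 15458 to 1111 of 15828 without CT-WD 1 and 1295 of 15693 without both. Without both they were 997 in OE-WD against CT-WD and 550 in OE-CTD against CT-CTD. Of the 50 fold changes recomputed, 1077 of 1152 values kept direction and call, 22 lost a call, 26 gained one and 27 changed sign, all of the latter small averaged genotype differences. H2-K1 was 0.00734 by limma on log2(FPKM + 1), with and without the filter, 0.0105 with a pseudocount of 0.1, 0.26 without both CT libraries numbered 1, 0.0821 without both EC-Myc OE libraries numbered 4 (also chosen after the data were seen), and between -0.14 and 0.18 with each library left out. Nlrc5 was 0.18 and 0.21 in the same added settings and between -0.18 and 0.17 with each library left out, B2m then lay between -0.0194 and 0.20, and Tap1 between -0.0477 and 0.49. The cause was not tested. Over all 70 fold changes of the 10 genes in the 7 comparisons, printed or not, 180 of 1611 recomputed values changed sign, in 44 of the 70, and 5 were called. Those 44 include H2-Eb1 in CT-WD against CT-CTD (1.21 with all libraries), whereas the others lay between -0.35 and 0.41, so the direction of small differences is not settled by these libraries. Of the 45 correlations, between 2 and 9 changed sign under the 5 alternatives, none of them among the 12 that had passed. H2-Eb1 and Ciita were not tested in every setting, because filters removed them.

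With the replicate number as a block, H2-K1 was 0.12 and Nlrc5 0.26 averaged over diets. For the CT libraries, whose pairing is not settled (5 of 6 closest to their own number), the block changed no call on a member. In genotype comparisons the libraries share only a number (7 libraries each, of which 0 in WD and 1 in CTD were closest to their own number). OE-CTD 4 and OE-WD 4 have no CT library of their number and drop out of those blocked comparisons. For EC-Myc OE between diets the correlations were 0.0711, 0.138, 0.142 and 0.338 for numbers 1 to 4 and 7 of 8 libraries were closest to their own number. Number 1 fell short of the 0.1 required, and with number 4 apart in both groups this check does not settle pairs either. The replicate block gave adjusted p = 0.153 for Ctss in OE-CTD against CT-CTD, and averaged over diets 0.0721 for Ctss, 0.0711 for H2-T24, 0.0766 for Lep, 0.063 for Fcgrt, 0.110 for Jak1 and 0.0534 for Jak2 in edgeR's test. Groups held 3 or 4 libraries and H2-Eb1, Ciita, Nlrc5 and H2-Aa had few reads, and how far this limited detection was not tested.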
